A study of Mus musculus with 16 samples.

Results

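Most of the genes examined encode or handle proteins of the azurophilic granule of neutrophils. The 9 were listed together as azurophilic granule and promyelocyte genes, although neutrophils make Hp later. They are Mpo, Elane, Prtn3, Ctsg, Ms4a3, Nkg7, Cst7, Hp and Srgn, taken by name from 49585 genes in 2 tables of read counts. All 9 were found, and all 9 passed the filter on low counts in every comparison. The libraries were made from cells labelled as sorted neutrophils from the bones of C57BL/6 mice aged 8 to 12 weeks. The group P2KO is labelled Vav:cre-PHD2f/f, a conditional deletion of the oxygen sensor PHD2 (gene Egln1), and its controls P2WT are labelled wild type. The group P2H2KO is labelled Vav:cre-PHD2/HIF2ff/ff, a deletion of PHD2 together with the hypoxia-inducible factor subunit HIF2α (gene Epas1), and it has wild-type controls of its own, P2H2WT. Both deficient groups thus carry the PHD2 deletion. The Vav promoter drives the recombinase in blood-forming cells in general and not in neutrophils alone. Whether the controls carry floxed alleles or the recombinase is not given in the sources used here. Each group held 4 libraries, named below by group and by the number in the library title.

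Azurophilic, or primary, granules are the first granules that a developing neutrophil makes, at the promyelocyte stage in the bone marrow. Their cargo is transcribed during that short window and stays in the cell as protein, whereas the transcripts decline as the cell goes on to make specific and gelatinase granules. Mpo encodes myeloperoxidase, which forms hypochlorous acid from hydrogen peroxide and chloride. Elane, Prtn3 and Ctsg encode the serine proteases neutrophil elastase, proteinase 3 and cathepsin G. Ms4a3 encodes a membrane protein of granulocyte and monocyte precursors, and Cst7 encodes cystatin F, an inhibitor of the cysteine cathepsins that activate granule proteases. Nkg7 encodes a membrane protein of cytotoxic granules and is known best from natural killer and T cells. Srgn encodes serglycin, the proteoglycan core that holds basic granule proteins in store, and Hp encodes haptoglobin, the haemoglobin-binding protein that neutrophils make later and keep in specific granules.

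The libraries held 23450746 to 28601284 counts. Across genes, r between replicates ran from 0.977 to 0.993 over 24 pairs, and every pair differed beyond the noise of counting. The first principal component of log2 CPM (read counts scaled to a common library total, after TMM) held 27.1% of the variance. It separated the lines by a gap that was small beside the spread within them, P2 from -43.95 to -1.87 and P2H2 from 0.735 to 38.21. Since each line has a table of its own, line and table cannot be told apart. Egln1 lay at 43.2 to 58.4 CPM in P2KO against 45.9 to 51.3 in P2WT, and Epas1 at 3.42 to 8.39 in P2H2KO against 2.55 to 4.97 in P2H2WT. Counts over whole genes therefore did not check the deletions. A list of 8 HIF target genes was picked from earlier results of these data. All 8 had estimates above 0 and an unadjusted p under 0.05 in both lines (edgeR, 3.49% and 2.63% of all genes). At an adjusted p under 0.05, edgeR called 4 of them in P2KO and 8 in P2H2KO, against 0.0437% and 0.0744% of all genes. This is a description and no independent evidence. Defining neutrophil transcripts were abundant, with S100a8 at 5245 to 14637 CPM and Ly6g at 84.3 to 270 CPM. Markers of other cells were present too. The summed level of 11 erythroid genes was 26883 to 54710.3 CPM, and Epx, the eosinophil peroxidase gene, lay at 522 to 1182 CPM. In such bulk samples, fewer cells of a type and less RNA per cell cannot be told apart. The labels do not say whether the libraries came from separate mice, so p-values measure only the spread between these samples.

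The 9 genes lie at 8 places in the genome (GRCm38, GENCODE M21; the submitters' processing notes name mm10, the same assembly). Prtn3 (chromosome 10, 79874476 to 79883174, plus strand) and Elane (chromosome 10, 79886247 to 79888215, plus strand) are neighbours, with 3.07 kb between them. Srgn (chromosome 10, 62493833 to 62527451, minus strand) lies on the same chromosome. Mpo (chromosome 11, 87793581 to 87804413, plus strand) lies beside the genes of the related peroxidases Lpo and Epx. Ctsg (chromosome 14, 56099881 to 56102574, minus strand) belongs to the cluster of granzyme and mast cell protease genes. Ms4a3 (chromosome 19, 11629496 to 11640851, minus strand), Nkg7 (chromosome 7, 43437073 to 43438249, plus strand), Cst7 (chromosome 2, 150570415 to 150578944, plus strand) and Hp (chromosome 8, 109575128 to 109579172, minus strand) lie apart. Exons of Mpo overlap those of Gm11505 over 15% of their length, and exons of Prtn3 overlap those of Plppr3 over 9.18%. Because the strand setting of the counting is not given in the sources used here, the counts of Mpo and Prtn3 are uncertain to that extent. Gm11505 had 4 to 25 counts per library and Plppr3 276 to 789.

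Some neighbours of these genes had few or no counts. Lpo, which encodes lactoperoxidase and lies 2.02 kb from Mpo, had 0 counts in all 16 libraries, which allows at most 0.135 CPM in any of them (3 counts, counting error only). Cfd, the complement factor D gene that lies 2.64 kb from Elane, had a mean of 0.418 CPM. In the Ctsg cluster, Mcpt8, a basophil protease gene, had 53.4 CPM and Gzmb, the granzyme B gene of cytotoxic cells, 1.82 CPM. Of the 16 neighbours listed, 6 had 0 counts in all libraries (Lpo, Gzmd, Gzmf, Gzmg, Gzmn and Mcpt9). These 6 are named because of their values.

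The start regions of Mpo, Elane, Prtn3 and Ctsg are shown because the transcripts of these 4 genes moved together from library to library, as described below. Each is the 250 bases before the RefSeq start (GRCm38.p6), 5′ to 3′ in the direction of the gene. Capitals mark GAGGAA, the letters of the binding motif of PU.1, a transcription factor of myeloid cells. RefSeq starts matched 8 of the 9 genes by symbol, and they can differ from the gene bounds given above.
Mpo, chr11:87793534-87793783, plus strand: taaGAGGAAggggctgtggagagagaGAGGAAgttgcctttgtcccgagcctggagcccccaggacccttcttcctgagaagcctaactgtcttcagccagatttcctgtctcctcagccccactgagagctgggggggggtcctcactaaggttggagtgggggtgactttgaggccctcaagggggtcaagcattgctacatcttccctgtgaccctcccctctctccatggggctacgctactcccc
Elane, chr10:79886062-79886311, plus strand: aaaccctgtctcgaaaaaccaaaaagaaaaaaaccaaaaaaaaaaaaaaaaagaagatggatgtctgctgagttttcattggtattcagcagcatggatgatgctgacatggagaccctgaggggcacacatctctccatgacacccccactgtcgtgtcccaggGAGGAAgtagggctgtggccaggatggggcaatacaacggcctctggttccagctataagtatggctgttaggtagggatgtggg
Prtn3, chr10:79879417-79879666, plus strand: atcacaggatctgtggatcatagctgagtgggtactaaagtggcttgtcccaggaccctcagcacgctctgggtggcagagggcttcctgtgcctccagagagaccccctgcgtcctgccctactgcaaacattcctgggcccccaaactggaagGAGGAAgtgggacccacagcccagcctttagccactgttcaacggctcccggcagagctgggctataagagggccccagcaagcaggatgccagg
Ctsg, chr14:56102575-56102824, minus strand: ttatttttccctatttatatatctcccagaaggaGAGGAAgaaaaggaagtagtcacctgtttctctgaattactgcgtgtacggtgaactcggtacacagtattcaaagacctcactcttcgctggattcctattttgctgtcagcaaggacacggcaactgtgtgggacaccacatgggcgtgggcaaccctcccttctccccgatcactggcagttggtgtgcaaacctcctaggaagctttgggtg

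GAGGAA was found in all 4 regions, in each case on the strand of the gene. It was in none of the regions of the other 4 matched genes, Ms4a3 and Cst7 among them. It began 85 bases before the start in Elane, 95 in Prtn3 and 216 in Ctsg, and 247 and 224 bases before it in Mpo. The same letters on either strand were found in 23.25% of 32851 mouse promoters of this length. The Myb letters AACNG were found in all 4 too, but also in 74.19% of promoters. The C/EBP letters TTNNGNAA (36.85% of promoters) were in none of the 4, and the RUNX letters TGTGGT (14.05%) only in Ctsg. Of the core letters bound by HIF factors, ACGTG (16.6% of promoters) was in none of the 4, and GCGTG (28.2%) was in Prtn3 and Ctsg. Both strands were searched for every motif, with no overlap between motifs removed. The motifs were chosen with the values known, and a match is a description of letters, not a binding site.

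Per kilobase of annotated exon, Hp, Elane and Mpo were the most abundant of the 9 genes, and Cst7 the least. Hp stood at 643 ± 137 CPM per kb (SD, n = 16), Elane at 555 ± 103 and Mpo at 533 ± 101, which differed by less than their spread over libraries and ranked 42, 46 and 52 among 14059 genes. Prtn3 followed at 250.3 ± 54.8 CPM per kb, Ctsg at 177 ± 37.8 and Srgn at 120.2 ± 10.8. Not divided by length, Srgn (mean 264 CPM) stood above Ctsg (182 CPM), so their order depends on the exon length. That length joins all annotated exons of a gene, whether or not they are used in these cells. Ms4a3 and Nkg7, at 46.6 ± 5.82 and 42.3 ± 6.01, did not differ beyond their spread either, and Cst7 stood at 22.7 ± 2.41, rank 2241. The 3 serine protease genes thus ranked Elane, Prtn3, Ctsg. As counts not divided by length, the 9 genes together held 0.349% to 0.534% of a library.

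Mpo, the peroxidase gene, lay at 2181, 1842, 1287 and 1443 CPM in the P2KO libraries and at 1638, 1767, 1860.4 and 2281 CPM in P2WT. In the other line it lay at 1954, 1678, 2214 and 2204 CPM in P2H2KO and at 1877, 1414, 2281 and 1299 CPM in P2H2WT. Here and below, values follow the order of the titles (P2KO 1, 5, 6 and 9; P2WT 10, 3, 4 and 7; P2H2KO 11, 12, 15 and 17; P2H2WT 13, 14, 16 and 18). In each line the deficient and wild-type groups overlapped, with P2KO 1 and P2WT 7 at the top of the P2 line. The means were 1688 ± 403 CPM (SD, n = 4) against 1887 ± 278 CPM, a log2 fold change of -0.15 (SE 0.18, 95% interval -0.55 to 0.25). In the P2H2 line they were 2013 ± 253 CPM against 1718 ± 451 CPM, a log2 fold change of 0.23 (SE 0.19, 95% interval -0.20 to 0.65). Neither change passed the test. The change in the P2 line ran from -0.30 without P2KO 1 to -0.039 without P2KO 6.

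Elane, the elastase gene, lay at 693, 552, 374 and 437 CPM in P2KO and 468, 524, 568 and 636 in P2WT. In the P2H2 line it lay at 631, 516, 585 and 663 CPM in P2H2KO and 585, 442, 675 and 393 in P2H2WT. The P2KO values spanned both the lowest and the highest level in all 16 libraries, so that P2WT fell inside the range of P2KO. The log2 fold change was -0.085 (95% interval -0.50 to 0.33) in the P2 line and 0.19 (95% interval -0.20 to 0.58) in the P2H2 line. Prtn3, the proteinase 3 gene, lay at 526, 421, 340.5 and 316 CPM in P2KO and 359, 391, 413 and 553 in P2WT. In the other line Prtn3 lay at 422, 431, 594 and 535 CPM in P2H2KO and 423, 317, 574 and 321 in P2H2WT. Again the groups overlapped, and P2H2WT 16 lay above 3 of the 4 deficient libraries of its line. Its log2 fold changes were -0.087 (95% interval -0.50 to 0.33) and 0.28 (95% interval -0.18 to 0.73). Ctsg, the cathepsin G gene, lay at 204, 173, 135 and 128 CPM in P2KO and 150.0, 171, 169 and 228 in P2WT. In the P2H2 line Ctsg lay at 186, 183, 244 and 219 CPM in P2H2KO and 192, 134, 253 and 149 in P2H2WT. The highest and lowest libraries were the same as for Prtn3 in both P2 groups. The log2 fold changes of Ctsg were -0.15 (95% interval -0.54 to 0.23) and 0.19 (95% interval -0.25 to 0.63), and the first ran from -0.29 without P2KO 1 to -0.020 without P2WT 7.

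**Figure D1:**
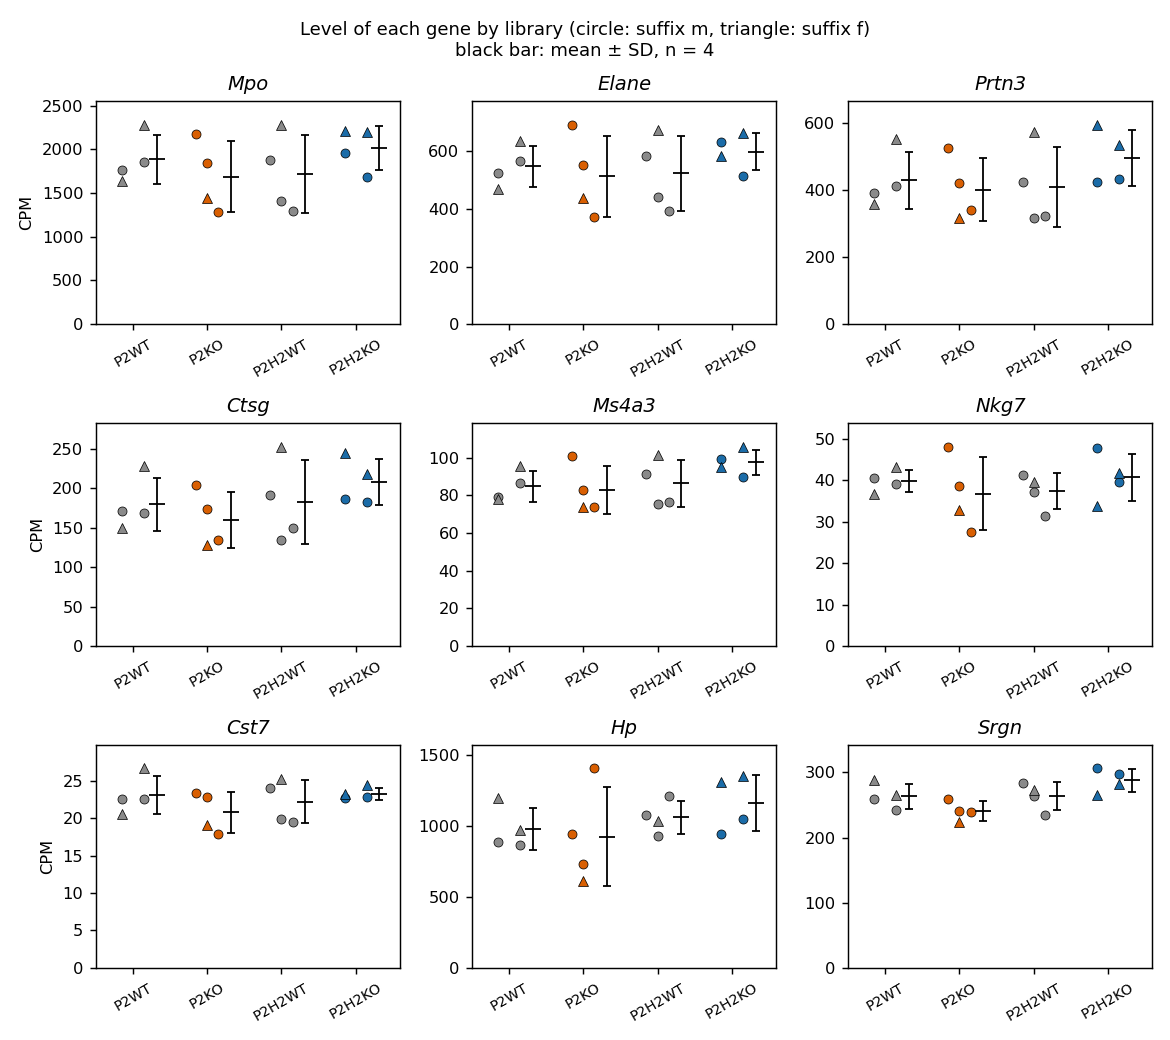
Level of each gene in CPM (vertical axis, from 0) by group (horizontal axis), with 1 point per library and the mean ± SD (n = 4) beside the points; circles and triangles mark titles that end in m and f. In every panel the deficient and wild-type points of a line overlap, as in Mpo, where P2KO spans 1287 to 2181 and P2WT 1638 to 2281 CPM.

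The precursor and inhibitor genes varied less. Ms4a3 lay between 73.7 and 106 CPM over the 16 libraries, with log2 fold changes of -0.021 (95% interval -0.27 to 0.23) in the P2 line and 0.17 (-0.069 to 0.42) in the P2H2 line. Cst7 lay between 17.9 and 26.6 CPM, with log2 fold changes of -0.14 (-0.38 to 0.11) and 0.068 (-0.15 to 0.29). Nkg7 lay between 27.5 CPM in P2KO 6 and 48.1 CPM in P2KO 1, so that 1 group held both ends of its range. Its log2 fold changes were -0.10 (-0.44 to 0.23) and 0.12 (-0.15 to 0.40).

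Srgn, the serglycin gene, had the narrowest range of the 9 genes. It lay at 259.8, 241, 239 and 223 CPM in P2KO and 288, 259, 242 and 265 in P2WT. In the other line it lay at 306, 297, 266 and 282 CPM in P2H2KO and 284, 264, 273 and 235 in P2H2WT. All 4 P2KO libraries were below the mean of P2WT and all 4 P2H2KO libraries above the mean of P2H2WT, while the groups overlapped in both lines. The log2 fold changes were -0.12 (SE 0.079) and 0.12 (SE 0.087).

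Hp, the haptoglobin gene, had the widest range. It lay at 941, 733, 1406 and 614 CPM in P2KO and 1196, 888, 866 and 971 in P2WT. In the other line it lay at 943, 1052, 1309 and 1349.9 CPM in P2H2KO and 1078, 929.6, 1035 and 1211 in P2H2WT. P2KO 6, the library lowest in Mpo and Elane, was the highest in Hp, and P2KO 9 the lowest. The log2 fold changes were -0.073 (95% interval -0.63 to 0.48) and 0.13 (-0.18 to 0.44). Without P2KO 6 the change in the P2 line was -0.35, and it turned to 0.021 without P2KO 5, to 0.075 without P2KO 9 and to 0.042 without P2WT 10.

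The comparison of P2KO with P2WT addresses the loss of PHD2. None of the 9 genes passed the quasi-likelihood test of edgeR (Benjamini-Hochberg adjustment across the whole table), in which 0.0437% of 13734 genes were called at an adjusted p under 0.05. At an unadjusted p under 0.05 there were 0 of the 9 as well, against 3.49% of all genes, and DESeq2 called 0. All 9 estimates were below 0, with a median of -0.10 against 0.020 over all genes tested, and unadjusted p values ran from 0.165 for Srgn to 0.855 for Ms4a3. The groups overlapped in 9 of 9 genes, and did not overlap in 2.25% of all genes tested. The 9 genes are not independent of each other, as their correlations show. Leaving out 1 library turned the estimate above 0 for Elane (0.042 without P2KO 6), Nkg7 (0.013 without P2KO 6), Prtn3 (0.0099 without P2KO 9 and 0.056 without P2WT 7) and Ms4a3 (0.031, 0.029 and 0.039 without P2KO 6, P2KO 9 and P2WT 7). Without P2KO 1, the estimates for Elane, Prtn3, Ms4a3 and Nkg7 were -0.26, -0.25, -0.13 and -0.26. Cst7 was at -0.063 without P2WT 7 and Srgn at -0.069 without P2WT 10.

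With HIF2α deleted as well, none of the 9 genes passed the test either. In P2H2KO against P2H2WT, edgeR called 0.0744% of 13435 genes and 0 of the 9, with 0 at an unadjusted p under 0.05 (2.63% of all genes) and 0 by DESeq2. All 9 estimates were above 0, with a median of 0.17 against 0.0011 over all genes, and unadjusted p values from 0.140 for Ms4a3 to 0.507 for Cst7. The groups overlapped in 9 of 9 genes, and did not overlap in 1.71% of all genes tested. Without P2H2WT 16, the control library highest in Mpo, Elane, Prtn3 and Ctsg, the estimates for these 4 genes were 0.40, 0.34, 0.49 and 0.39. Other omissions lowered them, to 0.11 for Mpo and 0.073 for Elane without P2H2WT 18, and to 0.17 for Prtn3 and 0.066 for Ctsg without P2H2WT 14. The lowest estimates of the others were 0.0082 for Cst7 and 0.068 for Srgn without P2H2WT 18, 0.11 for Ms4a3 without P2H2WT 14, 0.036 for Nkg7 without P2H2KO 11 and 0.053 for Hp without P2H2KO 17. None turned below 0. With the suffix of the title as a covariate, the estimates for Mpo, Prtn3 and Ctsg were 0.14, 0.16 and 0.094.

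The difference of the effects addresses whether the response to PHD2 loss depends on HIF2α. A response that depends on the line or table cannot be told apart from this. The difference called 0 of the 9 genes as well (edgeR, smallest adjusted p 0.999, and 0 by DESeq2). Of all 14080 genes, 0% passed, and 1.51% had an unadjusted p under 0.05. The P2 effect minus the P2H2 effect ran from -0.39 in Mpo (SE 0.27, 95% interval -0.97 to 0.19) to -0.21 in Ms4a3 (-0.55 to 0.14). The order of the genes depended on single libraries, as for Hp, at -0.49 without P2KO 6 and -0.063 without P2KO 9. For Mpo the difference ran from -0.56 without P2H2WT 16 to -0.28 without P2H2WT 18. Srgn, at -0.25 (SE 0.11, unadjusted p 0.0352), was the 1 gene of the 9 with an unadjusted p under 0.05, and its adjusted p was 0.999. These intervals are wide. For Mpo they reach from a ratio of folds of 0.510 to 1.14.

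The mean of both effects averages PHD2 loss without and with loss of HIF2α, so it is not the effect of PHD2 loss alone. The effects partly cancel, since all 9 estimates were below 0 in the P2 line and above 0 in the P2H2 line. This mean was close to 0 in all 9 genes. It lay between -0.040 for Cst7 and 0.090 for Prtn3, with 7 estimates above 0 and 2 below, and 0 of the 9 genes passed (edgeR; 0.170% of all genes were called, 3.72% had an unadjusted p under 0.05, and for the 9 genes that count was 0). DESeq2 called 0 of the 9. The 95% interval was -0.12 to 0.11 for Srgn, the most precisely measured, or 0.920 to 1.08 as a fold. It was -0.26 to 0.32 for Mpo, -0.24 to 0.34 for Elane, -0.22 to 0.40 for Prtn3 and -0.29 to 0.31 for Ctsg. This mean, the difference of the effects and the effects of the single lines use the same libraries and are not independent of each other.

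**Figure D2:**
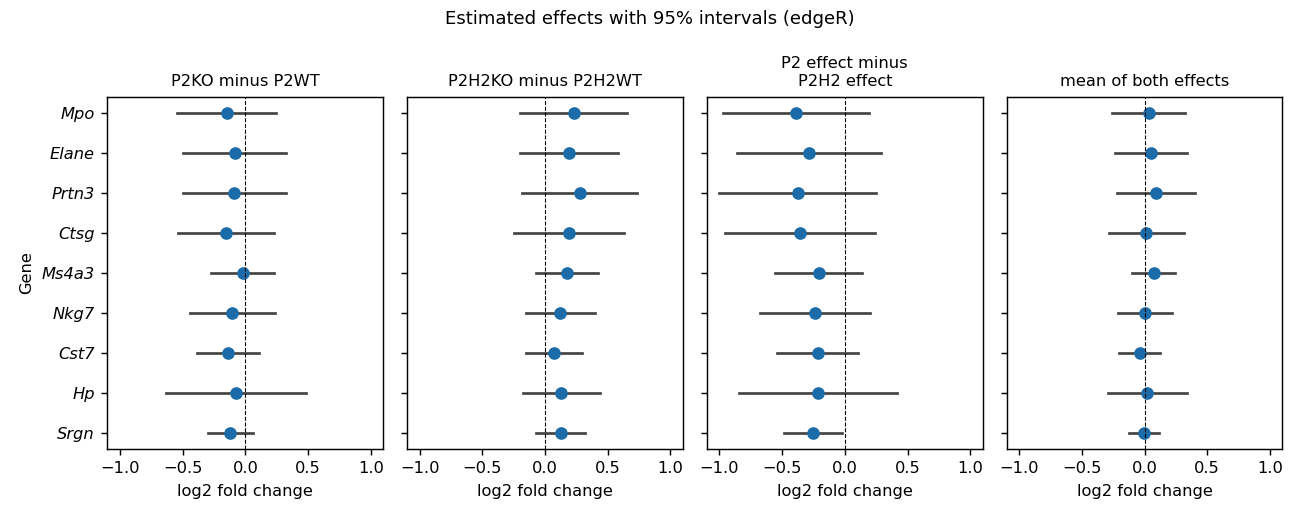
Log2 fold change (horizontal axis) of each gene with its 95% interval (line) in the P2 line, the P2H2 line, their difference and their mean. All intervals include 0 except that of Srgn in the difference, which runs from -0.49 to -0.020 before adjustment over all genes.

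Between the wild-type groups the 9 genes did not differ detectably, although the lines separated, by a small gap, on the first principal component over all genes tested. P2WT minus P2H2WT ran from -0.12 for Hp to 0.14 for Mpo, and 0 of the 9 genes passed (edgeR; smallest adjusted p 0.904, 0 at an unadjusted p under 0.05, and 0 by DESeq2). Of all genes, 0.227% were called and 10% (1414 of 14080) had an unadjusted p under 0.05. Of the 4 group means, that of P2H2KO was the highest and that of P2KO the lowest in all 9 genes. Groups next to each other in that order differed by less than the larger of their SDs, except in Srgn, where P2H2KO stood above and P2KO below the wild-type groups by more than that.

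Mpo, the 3 serine protease genes and Hp varied more between libraries of the same group than most genes of at least 20 CPM. The pooled SD of log2 CPM within groups was 0.289 for Mpo, 0.292 for Elane, 0.318 for Prtn3, 0.305 for Ctsg and 0.316 for Hp. The median over the 6960 genes with a mean of at least 20 CPM was 0.137, and 88.2% to 91.4% of them had a smaller SD than these 5 genes. Nkg7, at 0.223, Ms4a3, at 0.171, and Cst7, at 0.157, lay between these and Srgn. Srgn, at 0.101, was less variable than the median gene.

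Within a library Mpo, Elane, Prtn3 and Ctsg kept nearly fixed proportions. Elane stood at 26.4% to 32.3% of the Mpo CPM over the 16 libraries, Prtn3 at 21.6% to 26.8% and Ctsg at 8.90% to 11.5%. The pooled SD of the log2 ratio to Mpo was 0.0757 for Elane, 0.105 for Prtn3 and 0.10 for Ctsg, well under the spread of the levels themselves. The ratio of Nkg7 to Mpo, with a pooled SD of 0.214, and that of Cst7, with 0.152, varied about as much as the levels of Nkg7 and Cst7. For Srgn the SD of the ratio, 0.273, was above that of its level. For Hp the ratio ran from 39.8% to 109%, with a pooled SD of 0.452, larger than that of either gene alone.

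**Figure D3:**
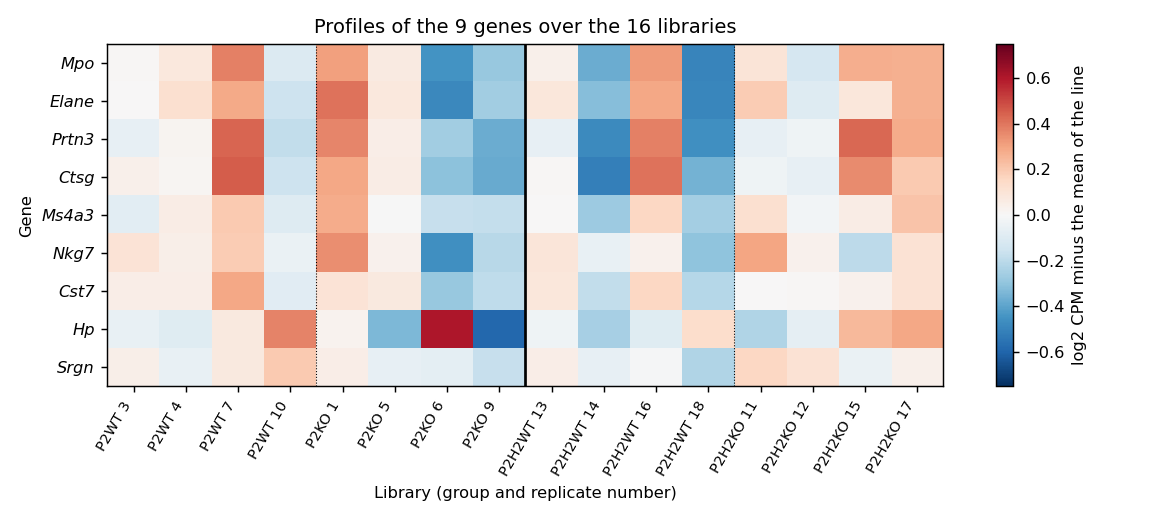
Colour gives the log2 CPM of each gene (rows) in each library (columns) minus the mean of its line, red above and blue below; the solid line separates the lines and dotted lines the groups. Mpo, Elane, Prtn3 and Ctsg share their high libraries (P2WT 7, P2KO 1, P2H2WT 16) and low libraries (P2KO 6, P2KO 9, P2H2WT 14, P2H2WT 18), whereas Hp is highest in P2KO 6 and lowest in P2KO 9.

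The 36 pairs of genes were related within each line, over 8 libraries, because the lines lie apart. P values come from exact permutation over all pairings and were adjusted over the 72 relations. All 6 pairs among Mpo, Elane, Prtn3 and Ctsg passed by Pearson's r in both lines (by rho 6 in the P2 line and 5 in the P2H2 line), with r between 0.911 and 0.983 in the P2 line and between 0.845 and 0.983 in the P2H2 line. For Prtn3 with Ctsg in the P2 line, r was 0.983 (exact permutation p 7.44e-05, adjusted 0.00268) and Spearman's rho 0.976 (exact permutation p 0.000397, adjusted 0.00571), with an r of 0.970 without the 2 libraries farthest from the median Prtn3 level. For the same pair in the P2H2 line, r was 0.983 (exact permutation p 0.000372, adjusted 0.00325) and Spearman's rho 0.905 (exact permutation p 0.00456, adjusted 0.0164), with an r of 0.981 without the 2 libraries farthest from the median Prtn3 level. For Mpo with Elane in the P2 line, r was 0.980 (exact permutation p 0.000149, adjusted 0.00268) and Spearman's rho 0.976 (exact permutation p 0.000397, adjusted 0.00571), with an r of 0.985 without the 2 libraries farthest from the median Mpo level. For that pair in the P2H2 line, r was 0.960 (exact permutation p 0.000446, adjusted 0.00325) and Spearman's rho 0.857 (exact permutation p 0.0107, adjusted 0.0266), with an r of 0.816 without the 2 libraries farthest from the median Mpo level. The neighbouring genes Prtn3 and Elane had the weakest relation of these in the P2H2 line. There r was 0.845 (exact permutation p 0.00895, adjusted 0.0184) and Spearman's rho 0.595 (exact permutation p 0.132, adjusted 0.238). Without the 2 libraries farthest from the median Elane level r was 0.470, so that its size depended on those 2 libraries. For Elane with Ctsg, r in that line fell from 0.846 to 0.552 in the same way. That pair passed by rho, however (0.81, exact permutation p 0.0218, adjusted 0.0475). Libraries of a line share their table, and the values of every gene are shares of a library's total.

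Ms4a3, Cst7 and Nkg7 moved with these 4 genes in the P2 line, where all 21 pairs of the 7 genes other than Hp and Srgn passed by r and by rho. No other pairs passed in that line (21 of 36), so these 7 genes are a set made by their values. How often pairs of other genes would pass was not tested. Of the same pairs 15 of 21 passed by r in the P2H2 line and 11 of 21 by rho, and the 6 pairs with Nkg7 passed by neither. The 4 pairs that passed by r alone were Elane with Prtn3, Prtn3 with Ms4a3, Prtn3 with Cst7 and Ms4a3 with Cst7 (adjusted exact permutation p for rho 0.238, 0.135, 0.0575 and 0.0575). For Mpo with Nkg7 in the P2 line, r was 0.948 (exact permutation p 0.000496, adjusted 0.00325) and Spearman's rho 0.905 (exact permutation p 0.00456, adjusted 0.0164), with an r of 0.961 without the 2 libraries farthest from the median Mpo level. In the P2H2 line r was 0.458 (exact permutation p 0.257, adjusted 0.378) and Spearman's rho 0.405 (exact permutation p 0.327, adjusted 0.444), with an r of -0.287 without the 2 libraries farthest from the median Mpo level. The difference between the lines in this relation was not tested. Hp was related to none of the other 8 genes past the threshold, with r between -0.270 and 0.538 in the P2 line and between -0.448 and 0.456 in the P2H2 line. Srgn passed in 1 pair, with Nkg7 in the P2H2 line, where r was 0.903 (exact permutation p 0.00313, adjusted 0.00900) and Spearman's rho 0.809 (exact permutation p 0.0218, adjusted 0.0475), with an r of 0.666 without the 2 libraries farthest from the median Nkg7 level.

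**Figure D4:**
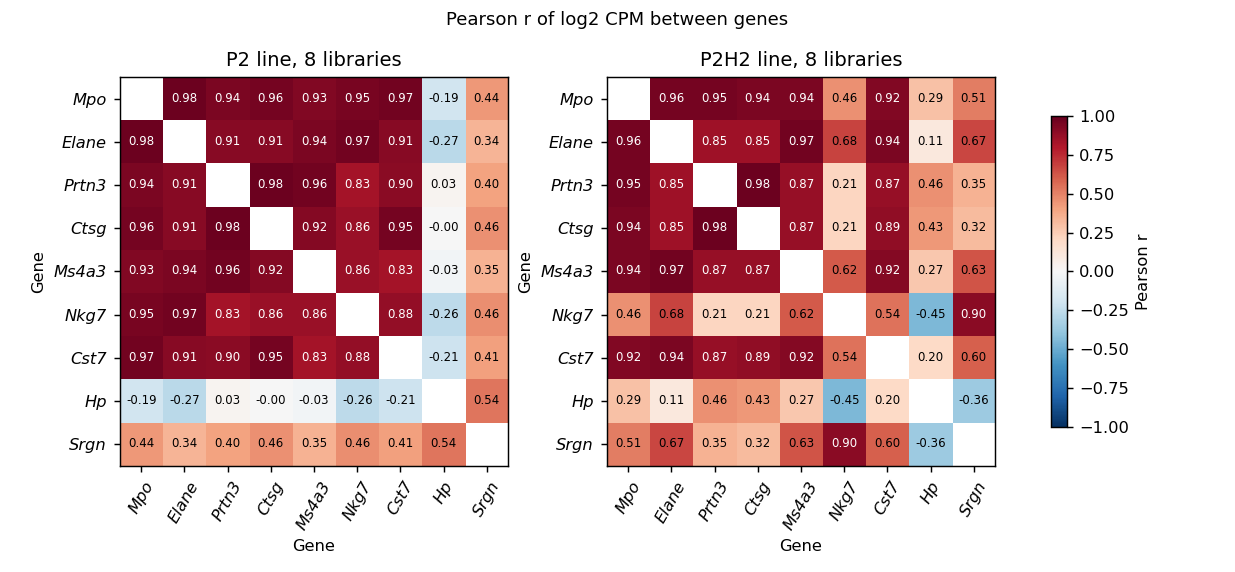
Pearson r of log2 CPM between each pair of genes (rows and columns) over the 8 libraries of the P2 line (left) and of the P2H2 line (right), printed in each cell. Pairs among Mpo, Elane, Prtn3 and Ctsg are at 0.845 or more in both lines, while the row of Hp is near or below 0 with most genes in the P2 line.

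Hp went with the genes of later granules in the P2 line. Its relation to the summed CPM of 12 specific granule genes was r 0.979 (exact permutation p 7.44e-05, adjusted 0.0107) and rho 0.976 (exact permutation p 0.000397, adjusted 0.0571) in the P2 line, adjusted over 144 relations of the 9 genes with 8 lists in 2 lines. Without the 2 libraries farthest from the median that r was 0.970. In the P2H2 line the relation had r 0.914 (exact permutation p 0.00300, adjusted 0.0720) and rho 0.786 (exact permutation p 0.0279, adjusted 0.402), with an r of 0.852 without 2 libraries. It thus passed the adjustment in the P2 line only, and by Pearson's r only; the difference between the lines was not tested. In the P2 line Hp passed by Pearson's r with 3 further lists as well, mature neutrophil genes (r 0.966, adjusted exact permutation p 0.0333), gelatinase granule genes (0.959, 0.0357) and precursor genes (0.969, 0.0333), and by rho with none. Without the 2 farthest libraries these were 0.899, 0.907 and 0.882. Chil3 alone, at a mean of 3416 CPM, exceeded the other precursor genes together, and it is in the specific granule list too. None of the other 8 genes passed with any list. For Mpo the specific granule list gave r -0.365 (exact permutation p 0.378, adjusted 0.689) and rho -0.119 (exact permutation p 0.793, adjusted 0.952) in the P2 line, and in the P2H2 line r 0.240 (exact permutation p 0.550, adjusted 0.803) and rho 0.309 (exact permutation p 0.462, adjusted 0.920). Mpo was not related detectably to the 12 genes of cycling cells either, with r 0.159 (exact permutation p 0.695, adjusted 0.812) and rho 0.119 (exact permutation p 0.793, adjusted 0.952) in the P2 line and r -0.576 (exact permutation p 0.140, adjusted 0.670) and rho -0.524 (exact permutation p 0.197, adjusted 0.920) in the P2H2 line. Without the 2 libraries farthest from the median, the r of Mpo with the specific granule list turned to 0.761 and 0.739 in the 2 lines, and with the cycling list it was 0.190 and -0.645. These 144 relations were added after the values had been seen. Hp is also counted among specific granule proteins, but the list does not hold it.

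**Figure D5:**
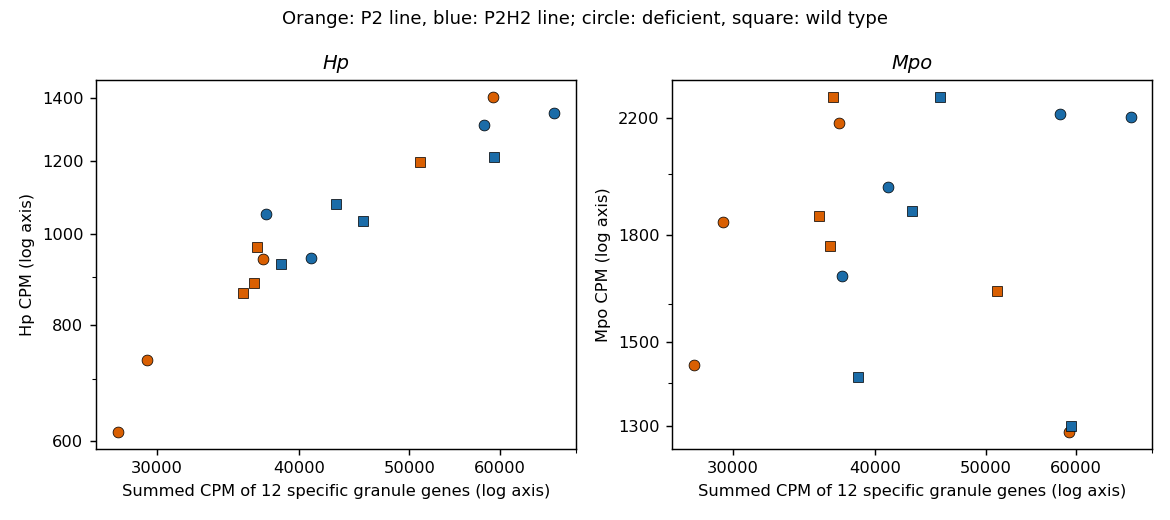
Level of Hp (left) and Mpo (right) in CPM against the summed CPM of 12 specific granule genes, both on log axes, with 1 point per library; orange is the P2 line, blue the P2H2 line, circles are deficient and squares wild-type libraries. In the P2 line Hp rises with the list from 614 CPM in P2KO 9 to 1406 CPM in P2KO 6, while P2KO 6, the library highest in the list, is the lowest in Mpo at 1287 CPM.

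The genes most like each of the 9 were found by Pearson's r over the 16 libraries after removal of line means. They were sought among 9534 other genes with a mean of at least 5 CPM. Predicted genes, genes named only by a clone or accession, and genes without a symbol were left out. The values of r are a description, since the genes were picked as the highest. Mpo was most like Rpl10 (r 0.921), Suclg1 (r 0.906) and Dio2 (r 0.899). Elane was most like Rpl10a (r 0.918), Cox7b (r 0.913) and Dio2 (r 0.906). Prtn3 was most like Ext2 (r 0.914), Gstm1 (r 0.906) and M6pr (r 0.905), and Ctsg Gstm1 (r 0.931), Rpl10 (r 0.916) and Ext2 (r 0.915). For Ms4a3 they were Suclg1 (r 0.907), Dio2 (r 0.868) and Tm2d3 (r 0.858). Ribosomal protein genes were among the nearest for Mpo, Elane, Ctsg, Nkg7 and Cst7, with Nkg7 most like Rpl35 (r 0.888), Rpl27a (r 0.861) and Prss57 (r 0.857) and Cst7 most like Rpl37a (r 0.902), Rps13 (r 0.894) and Rpl10 (r 0.885). Prss57 encodes another serine protease of the azurophilic granule. Hp had the closest likeness of all, to Nlrx1 (r 0.986), Msrb1 (r 0.981) and Efhd2 (r 0.979), and Srgn the weakest, to Klhdc3 (r 0.827), Tbc1d15 (r 0.768) and Cpt1a (r 0.693).

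Other proteins of the azurophilic granule were examined as a list of 20 genes, of which 19 were tested and 0 passed in any comparison (edgeR). In P2KO 2 estimates were above 0 and 17 below, with a median log2 fold change of -0.11. There 2 genes were at an unadjusted p under 0.05 (edgeR, 3.49% of all genes). In P2H2KO 12 were above and 7 below, with a median of 0.033 and 0 genes at an unadjusted p under 0.05. Lyz2, the lysozyme gene, which is in the specific granule list too, was the most abundant at 8495 CPM, with log2 fold changes of -0.17 (SE 0.21) and 0.034 (SE 0.23). Ctsb, the cathepsin B gene, had -0.11 (SE 0.10) and -0.15 (SE 0.084). Man2b1, a lysosomal mannosidase gene, had -0.11 and -0.029, and Ctsd, the cathepsin D gene, -0.081 and -0.10.

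Genes that process, inhibit or sort granule proteases (16 listed, 16 tested) gave 0 calls and 0 genes at an unadjusted p under 0.05 (edgeR), with 7 estimates above 0 and 9 below in P2KO and 10 above and 6 below in P2H2KO. Cst3, the gene of the protease inhibitor cystatin C, had log2 fold changes of -0.20 (SE 0.11) and 0.027 (SE 0.21), and Lyst, a gene of lysosomal trafficking, 0.040 (SE 0.27) and 0.17 (SE 0.17). Ctsc, the gene of the cathepsin that activates the serine proteases, lay at 253 CPM with log2 fold changes of -0.091 (SE 0.20) and -0.014 (SE 0.22). Serpinb1a, which encodes an inhibitor of elastase, had 0.032 (SE 0.17) and 0.084 (SE 0.10). Transcription factors of promyelocytes (11 listed, 11 tested) gave 0 calls as well, with 7 estimates above 0 in P2KO and 9 in P2H2KO. In P2KO 1 of them had an unadjusted p under 0.05 (edgeR, 3.49% of all genes). This was Cebpa, a factor of early granulocyte commitment, named because of its value. It was at -0.38 (SE 0.095, edgeR unadjusted p 0.00293) in P2KO, where it did not pass the adjustment. In P2H2KO it was at 0.034 (SE 0.25). Spi1, the gene of PU.1, had -0.0034 (SE 0.20) and 0.12 (SE 0.14), and Cebpe, a factor needed for specific granules, 0.14 (SE 0.18) and 0.11 (SE 0.15). Ets1 had 0.075 (SE 0.15) and -0.022 (SE 0.10), and Cbfb, a partner of RUNX factors, -0.059 (SE 0.099) and 0.0086 (SE 0.10).

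Several of the 9 genes are also expressed outside the neutrophil lineage, so markers of those cells are given beside them. Mpo, Elane, Prtn3, Ctsg and Ms4a3 are shared with precursors of monocytes. The summed CPM of 13 monocyte and macrophage genes was 2306 to 2944 in P2KO and 3023 to 3719 in P2WT, without overlap, and 2610.2 to 4736 in P2H2KO and 2746 to 4471 in P2H2WT. Taken singly, 2.25% of all genes tested did not overlap in the P2 line. All 13 had estimates below 0 in P2KO and 7 in P2H2KO, and 0 passed (edgeR). In each line 4 were at an unadjusted p under 0.05 (edgeR), against 3.49% and 2.63% of all genes in the P2 and P2H2 lines. Nkg7, Cst7 and Srgn are known from cytotoxic cells. The 13 natural killer and T cell genes summed to 37.3 to 53.9 CPM in P2KO and 52.8 to 63.9 in P2WT, and to 37.7 to 64.0 and 49.9 to 59.3 in P2H2KO and P2H2WT. In the P2 line 12 of these 13 had estimates below 0, with 0 calls and 6 at an unadjusted p under 0.05 (edgeR, 3.49% of all genes). Nkg7 lay at 27.5 to 48.1 CPM. The most abundant genes of the list lay lower, Ccl5 at 6.17 to 15.4 CPM and Gzma at 4.42 to 10.6 CPM. Cd3e lay at 1.03 to 3.25 CPM and Ncr1 at 1.53 to 4.78 CPM. In the P2 and then the P2H2 line, the log2 fold changes were -0.60 and 0.076 for Ccl5 and -0.78 and -0.28 for Gzma. Klrb1c, with the smallest adjusted p of the list in the P2 line (edgeR, 0.0688), had -0.75 and -0.081. Srgn is abundant in platelets and mast cells too. The summed CPM of 7 megakaryocyte genes was 71.1 to 248 in P2KO, 60.1 to 132 in P2WT, 42.5 to 114 in P2H2KO and 51.8 to 66.9 in P2H2WT. The 10 mast cell, basophil and eosinophil genes summed to 2640.4 to 5607, 2978 to 4318, 3250.0 to 5014 and 4154 to 4972 CPM in the same order. In these lists no gene was at 0 in all libraries, and their part in the levels of the 9 genes was not tested.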

How the data were processed

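The authors deposited 2 tables of raw counts of reads per Ensembl gene, 1 per line, with 8 libraries each and no normalization. HTSeq and mm10 are named in the submitters' processing notes. The aligner, annotation release and strand setting are not given in the sources used here. Columns were mapped to samples by title, and 0 columns were left over. Symbols were found for 49326 of 49585 identifiers. Within each comparison, genes were filtered with filterByExpr, scaled with TMM and tested with the quasi-likelihood test of edgeR 4.0.16 (R 4.3.3), with Benjamini-Hochberg adjustment over all genes tested and a threshold of 0.05. The P2 and P2H2 effects came from the 8 libraries of a line, the other contrasts from all 16. CPM values, and log2 CPM with a prior count of 2, came from the scaling of all 16 libraries. Intervals are 95% intervals from the fit's degrees of freedom. The procedure was tested on simulated counts. Alternatives were DESeq2 1.42.0, RLE factors, leaving the filter out, a stricter one (10 counts or more per library), the title suffix as a covariate, a fit of all 16 libraries for single lines, a prior count of 0.5 for the pairs, and each library left out in turn (for the pairs added after seeing the data). Exact permutation tests of correlations used numpy 2.4.6 and scipy 1.17.1. The genes and lists were chosen with earlier results of these data known. All 9 genes were named, and from other lists up to 4 genes by the highest mean CPM; Ly6g, Cd3e and Ncr1 were added as known markers, and other exceptions are stated beside them.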

Additional observations from a re-analysis of the deposited data

Results flagged for a closer look

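All 9 genes had estimates of opposite sign in the lines. Srgn was singled out by a further rule on log2 CPM. It alone had all 4 P2KO libraries below the P2WT mean and all 4 P2H2KO libraries above the P2H2WT mean. Its spread within groups was also the smallest of the 9 genes (pooled SD 0.101). The P2 effect minus the P2H2 effect was -0.25 (SE 0.11), with an unadjusted p of 0.0352 and an adjusted p of 0.999 (edgeR), so the difference did not pass the test over all genes. No library stood apart from the others of its group for any of the 9 genes in the 36 combinations of gene and group by Dixon's ratio at its 95% critical value.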

How the results depend on the processing

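The number of the 9 genes called was 0 in all 5 comparisons under every setting and with each library left out. Over all values reported, 291 were labelled the same under other settings, 8 moved and 2 changed sign. With a library left out these were 651, 12 and 57. An estimate was labelled the same if its sign and call held. A count was also labelled the same after a limited change, as from 6 to 4 genes called in the P2 line with the suffix as a covariate. Estimates near 0 changed sign. Without the filter the mean effect on Nkg7 was -0.0041, and with the suffix as a covariate the difference of controls for Srgn was 0.00059. With single libraries left out, the sign changed for P2KO against P2WT in Elane (-0.26 to 0.042), Prtn3 (-0.25 to 0.056), Ms4a3 (-0.13 to 0.039), Nkg7 (-0.26 to 0.013) and Hp (-0.35 to 0.075), and for the mean effect in Mpo (-0.042 to 0.12), Elane (-0.043 to 0.12), Ctsg (-0.058 to 0.11), Nkg7 (-0.077 to 0.062), Hp (-0.12 to 0.10) and Srgn (-0.030 to 0.020), and between controls in Elane (-0.049 to 0.21), Prtn3 (-0.095 to 0.28), Ctsg (-0.18 to 0.18), Ms4a3 (-0.10 to 0.061), Cst7 (-0.040 to 0.12) and Srgn (-0.056 to 0.033). The number of genes called over the whole table depended on the tool. With DESeq2 it was 23 for P2KO, 42 for P2H2KO, 65 for the mean effect and 291 between controls, against 6, 10, 24 and 32 with edgeR. The fit of all 16 libraries gave 10 in the P2 line. Between controls it was 9 without a filter, 0 with at least 10 counts in every library and 124 with the suffix. With single libraries left out it ranged from 4 to 6, 6 (without P2H2WT 13) to 9, 15 (without P2WT 4) to 30, and 0 (without P2WT 3, 4 or 7 or P2H2WT 13) to 182 (without P2KO 9). The causes were not tested. Pairs past the threshold by Pearson's r numbered 21 and 16 under the other settings as well, and 19 to 22 and 13 to 17 with a library left out. With 4 libraries a group, the 95% intervals of the effects in single lines reached from -0.63 to 0.73 on the log2 scale. No paired analysis was possible because no replicate number is shared between groups.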

Other observations

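In the P2H2 line, the 3 libraries with a title ending in f had the highest levels of Mpo (2204 to 2281 CPM), Prtn3 (535 to 594 CPM) and Ctsg (219 to 253 CPM). The 5 libraries ending in m lay at 1299 to 1954, 317 to 431 and 134 to 192 CPM. In the P2 line the values of libraries ending in f and m overlapped, with Mpo at 1443 to 2281 CPM in 3 and at 1287 to 2181 CPM in 5 libraries. Those ending in f were P2H2KO 15, P2H2KO 17 and P2H2WT 16 in the P2H2 line. In the P2 line they were P2KO 9, P2WT 7 and P2WT 10. The suffix was thus not balanced between the groups compared. With it as a covariate, the P2H2 estimates fell in all of the 9 genes but Nkg7 and Srgn. They fell from 0.23 to 0.14 for Mpo, from 0.19 to 0.094 for Ctsg and from 0.13 to 0.061 for Hp. The pattern by suffix was seen after the values were known and was not tested.

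The 12 specific granule genes and the 12 mature neutrophil genes all had estimates above 0 in P2H2KO, with median log2 fold changes of 0.12 and 0.20. Of these genes 0 passed the test (edgeR), and 0 and 1 were at an unadjusted p under 0.05 (2.63% of all genes). In P2KO 3 of 12 and 5 of 12 were above 0, with medians of -0.015 and -0.0058. The most abundant members were Ngp, Ltf, Lyz2 and Chil3 in the first list and S100a9, S100a8 and Retnlg in the second. Ngp, which encodes a cathelin-like granule protein, lay at 7561 to 19180 CPM, and S100a9 at 7761 to 21366 CPM. The 11 erythroid genes, led by Hbb-bs, had 0 calls, with 11 estimates above 0 in P2KO and 11 below 0 in P2H2KO (medians 0.13 and -0.18). In the 7 lists that follow, no gene was called in either line (edgeR). Estimates above and below 0 numbered 6 and 5 in P2KO and 9 and 2 in P2H2KO for precursor genes, 11 and 1 and then 2 and 10 for genes of cycling cells, and 2 and 4 and then 4 and 2 for gelatinase granule genes. They numbered 7 and 2 and then 0 and 9 for B lineage genes, 3 and 4 and then 4 and 3 for stem and progenitor cell genes, 7 and 0 and then 6 and 1 for megakaryocyte genes, and 2 and 6 and then 1 and 7 for mast cell, basophil and eosinophil genes.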
